A study of Mus musculus with 42 samples.

Results

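Jun, Egr1 and Tnfrsf9, a set of genes switched on when T cells are activated, were followed from naive CD4+ T cells of the mouse to effector, rested and memory cells of the Th1 and Th2 lineages. The members were all reporters whose single symbol in the platform's gene table was one of these names, which gave 3 reporters for 3 genes (Entrez 16476, 13653 and 21942) among the 4992 reporters and 3230 distinct genes of the array. Each reporter was printed as 2 spots and was read on 2 arrays, a and b, for each of 21 samples, so that every gene had 84 spot values.

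Naive cells, CD44 low, CD62L high, CD45RB high and CD25 negative, came from the spleen of mice carrying a GFP transgene and the transgenic AND T cell receptor. That receptor recognises a pigeon cytochrome C peptide on I-Ek, so all 7 groups shared both transgenes, and the labels give no age, sex or strain background. Effector Th1 and effector Th2 cells were made from naive cells by 4 days of culture on antigen-presenting cells, in either Th1 or Th2 conditions. Rested Th1 and rested Th2 cells had a further 3 days without antigen-presenting cells, which the labels describe as giving a memory-like phenotype (CD44 high, CD62L low, CD45RB low, CD25 negative). Memory Th1 and memory Th2 cells were rested cells recovered by flow sorting 4 to 12 weeks after transfer into mice that had been thymectomised, lethally irradiated and given T cell-depleted bone marrow. The labels do not say which other cells the hosts still held. The labels do not say whether samples were pooled from several animals. They name the thymus in the source field although the growth protocol names the spleen. The memory Th2 samples carry RM-Th2 in 1 field and M-Th2 in the title, and the title was used. Each group held 3 samples, numbered 1 to 3 in the titles. All RNA (5 to 15 µg of total RNA) came from cryopreserved cells. Nothing in the labels says that the samples of a group were separate cultures or animals, so p-values measure the spread between these samples, which may be technical.

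Jun encodes c-Jun, a basic leucine zipper protein that pairs with Fos or other Jun proteins to form the transcription factor AP-1. In T cells, kinase cascades below the T cell receptor and CD28 raise Jun transcription and phosphorylate its protein, and AP-1 then acts with NFAT at cytokine genes such as Il2. Egr1 encodes a zinc finger transcription factor that is induced within minutes of receptor signalling through the Ras and ERK pathway and decays quickly. Tnfrsf9 encodes 4-1BB (CD137), a co-stimulatory receptor of the TNF receptor family that is nearly absent from resting T cells, appears after activation, binds the ligand encoded by Tnfsf9 and signals through TRAF adaptors to NF-κB.

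The DNA upstream of Jun and Tnfrsf9 is shown because the 2 genes are textbook targets of AP-1 and of NF-κB signalling. The sequences are RefSeq's for build GRCm38.p6 and hold the 250 bases before each annotated start, 5′ to 3′ on the strand of the gene, with motif matches in capitals. Jun lies on the minus strand at chr4:95052223-95052472. Tnfrsf9 lies on the plus strand and has 2 annotated starts, with windows at chr4:150919905-150920154 and chr4:150927749-150927998.
Jun: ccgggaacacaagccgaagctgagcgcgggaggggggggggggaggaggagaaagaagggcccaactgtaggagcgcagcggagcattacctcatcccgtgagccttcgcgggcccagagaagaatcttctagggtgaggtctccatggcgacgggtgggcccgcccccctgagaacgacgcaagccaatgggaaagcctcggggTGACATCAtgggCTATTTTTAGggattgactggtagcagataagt
Tnfrsf9, upstream start: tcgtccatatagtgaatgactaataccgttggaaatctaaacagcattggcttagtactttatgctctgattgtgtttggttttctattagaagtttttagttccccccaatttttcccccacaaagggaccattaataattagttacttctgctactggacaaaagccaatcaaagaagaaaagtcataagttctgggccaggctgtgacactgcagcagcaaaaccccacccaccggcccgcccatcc
Tnfrsf9, downstream start: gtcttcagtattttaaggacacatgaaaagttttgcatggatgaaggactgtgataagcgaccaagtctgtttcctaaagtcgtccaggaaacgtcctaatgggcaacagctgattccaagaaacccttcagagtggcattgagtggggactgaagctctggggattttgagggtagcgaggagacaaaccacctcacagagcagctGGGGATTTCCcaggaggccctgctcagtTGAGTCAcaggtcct
The motifs searched on both strands were TGANTCA (AP-1), TGACATCA (an AP-1 variant known from the human JUN promoter), TGACGTCA (CRE), GCGNGGGCG (EGR), an NF-κB motif (GGG, any 2 bases, TTTCC), the CArG box of serum response elements and the MEF2 motif. In the Jun window TGACATCA stood at bases -45 to -38 and a MEF2 match at -33 to -24. Of 32851 promoter windows of this length, 2.93% held TGACATCA and 2.92% the MEF2 motif. In the window of the downstream Tnfrsf9 start, GGGGATTTCC at -43 to -34 matched the NF-κB motif (held by 1.41% of windows) and TGAGTCA at -15 to -9 matched TGANTCA (6.75%). The matches did not overlap. The upstream Tnfrsf9 window held none of these letters. TGACGTCA, GCGNGGGCG and the CArG box, held by 1.55%, 4.70% and 1.47% of windows, were in none of the 3 windows.

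Levels below are log2(normalised intensity + 1), averaged over the spots and arrays of a sample. Differences are between group means on that scale, with the standard error (SE) and adjusted p of a limma fit over all 7 groups. A difference with an adjusted p under 0.05 was called. That fit held no term for the sample numbers, although same-numbered samples deviated together from their group means. Results with the number as a block are given where they change a call. The array medians of intensity lay between 5.74 and 12.99. Of the 84 spot values of a gene, 15 lay under the median of their own array for Jun (17.9%), 78 for Egr1 (92.9%) and 67 for Tnfrsf9 (79.8%). Egr1 and Tnfrsf9 were thus dim on most arrays, where adding 1 before the logarithm understates a fold change. In 13 of the 210 pairs of samples the 4 spot values of every reporter compared differed by 1 factor, to within 1%, and all 13 pairs joined same-numbered samples of different groups. They took in Th1 and Th2 samples of the same number at each stage, and samples 1 and 3 of naive and memory cells. The Jun intensities of effector Th1 sample 1, for example, were 5.66 times those of effector Th2 sample 1 in each of the 4 spots. In such a pair the spread between spots and arrays is not independent information about either sample, and the sources used here do not say how it arose. Of 12 listed CD4 T cell genes only Cd247, the CD3 zeta chain, was measured, at 0.99 to 2.39 in all samples, so that the labelled cell type could not be checked against Cd4 or Cd3e. Each member varied between the groups (F = 10.5 for Jun, 7.09 for Egr1 and 19.1 for Tnfrsf9, with adjusted p = 0.000501, 0.00364 and 1.23e-05), as did 27.2% of all reporters.

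**Figure D1:**
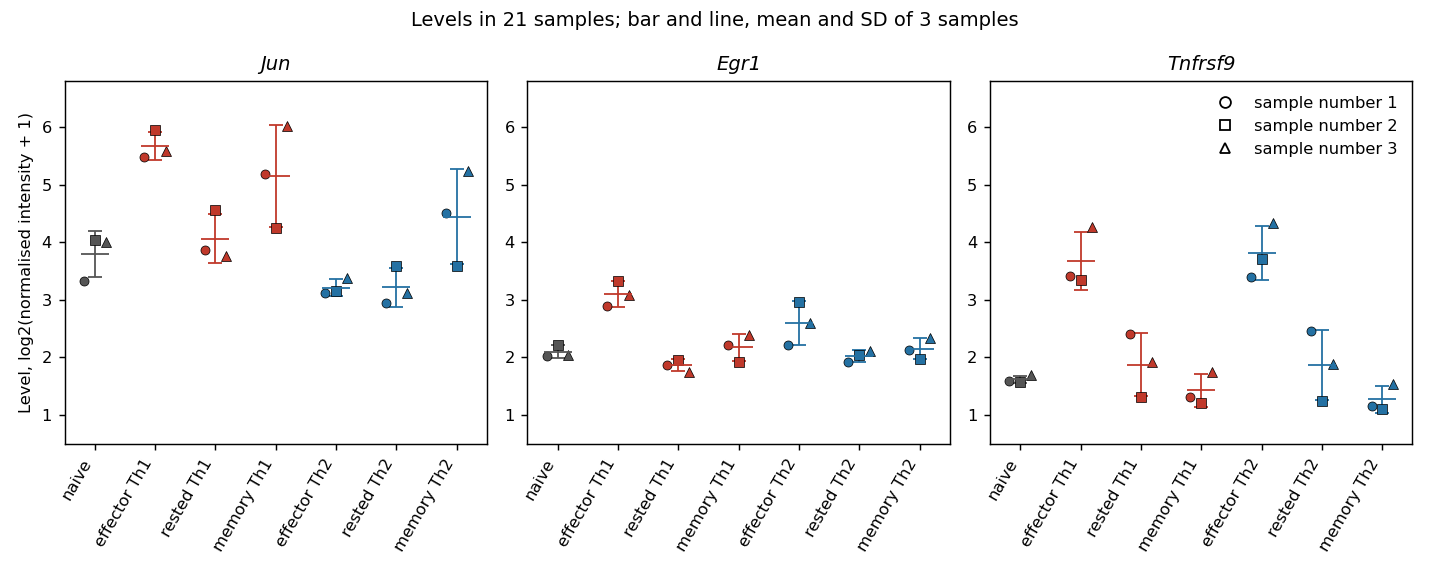
Levels of Jun, Egr1 and Tnfrsf9 as log2(normalised intensity + 1) on the y axis, by group on the x axis, with a symbol for each sample and its number, and the mean and SD of 3 samples as bars. Jun is high in effector Th1 and low in effector Th2 cells, Egr1 moves over a narrow range, and Tnfrsf9 is high in both effector groups.

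Jun was high in effector Th1 cells and low in effector Th2 cells, and stood above every naive sample in all 3 memory Th1 and in 2 of 3 memory Th2 samples. Neither memory difference from naive cells was called (limma, adjusted p = 0.136 in Th1 and 0.704 in Th2). Memory Th1 and naive samples did not overlap for 16.3% of all reporters. Naive samples had Jun levels of 3.33, 4.04 and 4.01. Effector Th1 samples reached 5.48, 5.94 and 5.59, all above every naive sample. Effector Th2 samples stood at 3.11, 3.14 and 3.37, of which the first and second lay below every naive sample. The rise in effector Th1 cells was 1.88 ± 0.41 (SE, n = 3 per group; 3.68-fold; limma, adjusted p = 0.00408) in a comparison in which 9.88% of reporters were called, 5.53% higher and 4.35% lower, and 28.3% did not overlap between groups. In effector Th2 cells the difference from naive cells was -0.58 ± 0.41 and was not called (adjusted p = 0.531; 9.13% of reporters called, 5.31% higher and 3.83% lower).

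The difference between the effector groups was itself tested. Jun was 2.46 ± 0.41 higher in effector Th1 than in effector Th2 cells (SE, n = 3 per group; 5.51-fold; 95% interval 1.61 to 3.32; limma, adjusted p = 0.005). It was 1 of only 9 reporters called in that comparison (0.18% of 4992; 0.12% higher), with no overlap between the groups (as for 5.65% of reporters) and at rank 8 by p and rank 6 by size. The Th1 level exceeded the Th2 level by 2.37, 2.80 and 2.22 in samples 1, 2 and 3. Without effector Th1 sample 2, whose level was the highest, the difference was 2.32 with an adjusted p of 0.0555, and a fit to the 6 effector samples alone with the replicate number as a block gave an adjusted p of 0.0535.

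Jun fell again when Th1 effectors were rested. Rested Th1 samples had levels of 3.87, 4.55 and 3.76, below every effector Th1 sample and overlapping the naive samples. The fall was 1.61 ± 0.41 on the log2 scale, or 3.05-fold (adjusted p = 0.0092; 16.2% of reporters called, 8.61% lower). With arrays a alone it was 1.33 and was not called (adjusted p = 0.0716). Rested Th2 samples, at 2.94, 3.59 and 3.11, differed from effector Th2 cells by 0.0027 ± 0.41 (95% interval -0.85 to 0.86), in a comparison with 7.57% of reporters called. The rest step of Th1 against that of Th2 differed by -1.61 ± 0.58, which was not called over all reporters (unadjusted p = 0.0116, adjusted p = 0.922; 0.1% of reporters called). With the spot pattern as a random block that difference was called (adjusted p = 0.000321), and so it was in a fit to the 4 groups alone with the replicate block (adjusted p = 0.0438). The spot pattern fit called 398 reporters in that test, against 5 without the pattern.

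In memory cells Jun varied more between samples than in any other group. Memory Th1 samples had Jun levels of 5.19, 4.24 and 6.02 (SD 0.89, n = 3) and memory Th2 samples 4.50, 3.59 and 5.24 (SD 0.83). In both lineages sample 2 was the lowest and sample 3 the highest. Memory Th1 sample 3 lay above all effector Th1 samples, whereas memory Th1 sample 2 lay within the range of the rested Th1 samples. The memory Th2 samples did not overlap the rested Th2 samples, as for 22.3% of reporters, although sample 2 stood at the highest rested level to 2 decimals. Against rested cells the means were higher by 1.09 ± 0.41 in Th1 (adjusted p = 0.0725; 17.8% of reporters called) and by 1.23 ± 0.41 in Th2 cells (adjusted p = 0.1003; 3.91% called). Neither was called by limma, but both had an unadjusted p under 0.05 (0.0153 and 0.00712). Both were called with the replicate number as a block (adjusted p = 0.0414 and 0.0439), in fits that called 1607 and 719 reporters. Without memory Th1 sample 2 the Th1 difference was 1.54 (adjusted p = 0.0141), and without memory Th2 sample 2 the Th2 difference was 1.66 (adjusted p = 0.0228). Leaving out 1 other sample at a time, the lowest differences were 0.65 in Th1 and 0.83 in Th2 cells. The highest adjusted p of these limma fits was 0.32 in Th1 and 0.341 in Th2 cells.

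Against naive cells, Jun was 1.36 ± 0.41 higher in memory Th1 cells, with no overlap between the samples of the groups (as for 16.3% of reporters), and 0.65 ± 0.41 higher in memory Th2 cells, whose samples overlapped the naive ones. The limma fit called neither (adjusted p = 0.136 and 0.704, with 0.781% and 0.28% of reporters called). The replicate block called the Th1 difference (adjusted p = 0.0489), as did the fit without memory Th1 sample 2 (1.81, adjusted p = 0.0343). Leaving out 1 other sample at a time, the Th1 difference was as low as 0.92, and the highest limma adjusted p was 0.395. The spot pattern as a random block, which weights the same-pattern pairs of naive and memory samples, gave 1.80 for Th1 (adjusted p = 2.62e-06) and 1.10 for Th2 cells (adjusted p = 0.000481), in fits that called 1489 and 1187 reporters. Without memory Th2 sample 2 or 3 the Th2 difference of the first fit was 1.08 or 0.25, and without naive sample 1 it was 0.42, none of them called.

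In descending order, mean Jun levels ran from effector Th1 (5.67 ± 0.24, SD, n = 3) over memory Th1 (5.15), memory Th2 (4.44), rested Th1 (4.06), naive (3.79 ± 0.40) and rested Th2 (3.21) to effector Th2 cells (3.21 ± 0.14). No neighbouring pair in that order differed beyond its 95% interval, and the samples of each such pair overlapped. At every stage the Th1 mean was the higher one. The rested groups differed by 0.85 ± 0.41 with no overlap (as for 13.2% of reporters; adjusted p = 0.561; 0.361% of reporters called) and the memory groups by 0.71 ± 0.41 with overlap (adjusted p = 0.999; 0.2% called). The memory difference was 1.16 without memory Th1 sample 2 and 1.105 without memory Th2 sample 3, and it was 0.27 and 0.28 without memory Th1 sample 3 and memory Th2 sample 2. Each of the 3 numbers showed the direction at both stages, by 0.93, 0.97 and 0.65 in rested and by 0.69, 0.65 and 0.78 in memory cells. With the spot pattern as a random block both were called (adjusted p = 0.00131 and 0.0144). Those fits called 1005 and 396 reporters, against 18 and 10 without that block.

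**Figure D2:**
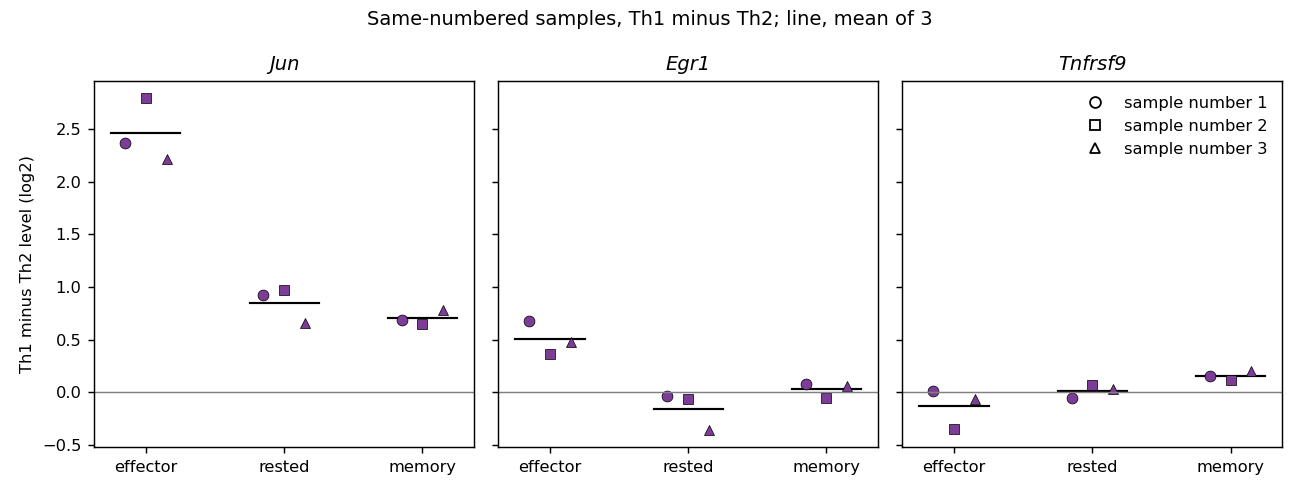
Th1 minus Th2 level (log2) of same-numbered samples on the y axis, at the effector, rested and memory stages on the x axis, for Jun, Egr1 and Tnfrsf9, with a symbol per sample number and a line at the mean of 3. All 9 Jun differences are above 0 and those of effector cells are the largest, the 3 Egr1 differences of effector cells are above 0, and the 9 Tnfrsf9 differences lie on both sides of 0, between -0.35 and 0.20.

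Egr1 rose in effector Th1 cells, and fell again in rested Th1 cells. Naive samples had Egr1 levels of 2.02, 2.22 and 2.05, and effector Th1 samples 2.89, 3.33 and 3.08, with no overlap (as for 28.3% of reporters). The rise was 1.01 ± 0.22 (SE, n = 3 per group; 2.01-fold; limma, adjusted p = 0.00498; 9.88% of reporters called). With a pseudocount of 8 in place of 1 it was 0.44 (adjusted p = 0.00668), and with arrays b alone it was 0.99 and was not called (adjusted p = 0.0616). Effector Th2 samples stood at 2.21, 2.97 and 2.60, spread from within the naive range to near the Th1 values. Their difference from naive cells, 0.50 ± 0.22, was not called (unadjusted p = 0.0389, adjusted p = 0.225).

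The Egr1 level of effector Th1 cells exceeded that of effector Th2 cells by 0.68, 0.37 and 0.48 in samples 1, 2 and 3, and by 0.51 ± 0.22 on average (95% interval 0.04 to 0.98). That difference was not called (adjusted p = 1), except with the spot pattern as a random block (adjusted p = 0.00888), where 121 reporters were called. A call in Th1 and none in Th2 effector cells is therefore not a difference between the lineages in the limma fit.

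After rest, Egr1 levels were 1.87, 1.96 and 1.75 in Th1 and 1.91, 2.03 and 2.12 in Th2 cells. The fall from effector cells was 1.24 ± 0.22 in Th1, or 2.36-fold (adjusted p = 0.000654), with 0.54 at a pseudocount of 8. In Th2 cells the difference was -0.57 ± 0.22 and was not called (adjusted p = 0.152), although the 3 rested samples lay below the 3 effector samples (groups did not overlap for 29.1% of reporters). Rested Th1 samples also lay below all naive samples, by 0.23 ± 0.22 on average, which was not called (adjusted p = 0.605; no overlap for 26.5% of reporters). The 2 rest steps differed by -0.66 ± 0.32 (adjusted p = 1; 0.0108 with the spot pattern as a random block, where 398 reporters were called). Memory samples stood at 2.21, 1.92 and 2.39 in Th1 and at 2.13, 1.97 and 2.33 in Th2 cells. They differed from naive cells by 0.08 ± 0.22 (95% interval -0.39 to 0.55) and 0.05 ± 0.22 (-0.42 to 0.52). From highest to lowest mean the order was effector Th1 (3.10), effector Th2 (2.59), memory Th1 (2.17), memory Th2 (2.15), naive (2.09), rested Th2 (2.02) and rested Th1 (1.86), and the samples of all neighbouring groups overlapped. Among the lowest 5 means no difference had a 95% interval that excluded 0.

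Tnfrsf9 rose in effector cells of both lineages and was low in all other groups. Naive samples had Tnfrsf9 levels of 1.59, 1.57 and 1.69. Effector Th1 samples had 3.41, 3.35 and 4.26, and effector Th2 samples 3.40, 3.70 and 4.33, all above every naive sample, and sample 3 was the highest in both lineages. The rise was 2.06 ± 0.34 in Th1 (SE, n = 3 per group; 4.16-fold; limma, adjusted p = 0.000338) and 2.19 ± 0.34 in Th2 cells (4.57-fold, adjusted p = 0.000185). These rises share the 3 naive samples. With a pseudocount of 8 they were 0.96 and 1.05 and were called (adjusted p = 0.000947 and 0.000433). In the Th1 comparison 28.3% and in the Th2 comparison 29.5% of reporters did not overlap. Effector Th1 and Th2 cells differed by -0.14 ± 0.34, with a 95% interval of -0.86 to 0.58.

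Rest brought Tnfrsf9 down in both lineages. Rested Th1 samples had levels of 2.40, 1.30 and 1.91 and rested Th2 samples 2.46, 1.24 and 1.88, so that each lineage showed the same order of samples 1, 3 and 2. The falls of 1.80 ± 0.34 in Th1 (3.48-fold, adjusted p = 0.00101) and 1.95 ± 0.34 in Th2 cells (3.87-fold, adjusted p = 0.000866; 4.13% of reporters called lower) left the rested samples overlapping the naive ones. At a pseudocount of 8 these falls were 0.86 and 0.95. Samples 1 and 3 of either lineage stayed above all naive samples, and sample 2 lay below them.

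Memory cells had the lowest mean Tnfrsf9 levels, at 1.31, 1.21 and 1.74 in Th1 and 1.16, 1.10 and 1.54 in Th2 cells. On array a of memory sample 2, 1 of the 2 spots was at an intensity of 0 in both lineages. The differences from naive cells were -0.19 ± 0.34 in Th1 (95% interval -0.91 to 0.53) and -0.35 ± 0.34 in Th2 cells (-1.07 to 0.37), and neither was called, although the 3 memory Th2 samples lay below the 3 naive ones (no overlap for 13.4% of reporters). Against rested cells the differences were -0.45 ± 0.34 and -0.59 ± 0.34 (adjusted p = 0.385 and 0.357). In order of mean level, effector Th2 (3.81) and effector Th1 cells (3.67) were followed after a gap of 1.80 by rested Th1 (1.87), rested Th2 (1.86), naive (1.62), memory Th1 (1.42) and memory Th2 cells (1.27). That gap was the only step in the order in which neighbouring samples did not overlap.

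Over the members together, 3 of 3 rose from naive to effector Th1 cells (5.53% of all reporters were called higher) and 3 of 3 fell on rest (8.61% called lower), and the groups did not overlap for any of them. For comparison, groups did not overlap for 28.3% of all reporters in the former and for 28.8% in the latter comparison. The members were chosen with earlier results of these data known, so the shares are no test of these counts. Both comparisons share the effector Th1 samples. In Th2 cells 1 of 3 rose (5.31% of all reporters called higher) and 1 of 3 fell (4.13% called lower), Tnfrsf9 both times. No member was called in 10 of the 15 comparisons by limma, which were memory against rested cells, rested against naive cells (10.5% of reporters called in Th1 and 2.96% in Th2) and memory against naive cells in either lineage, the rested and the memory lineage comparisons, and the tests of the rest and memory steps between lineages (0.1% and 0.0601% of reporters called). At an unadjusted p under 0.05, Jun alone passed in 4 of those 10, namely memory against rested Th1 and Th2, memory Th1 against naive, and the rest steps.

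**Figure D3:**
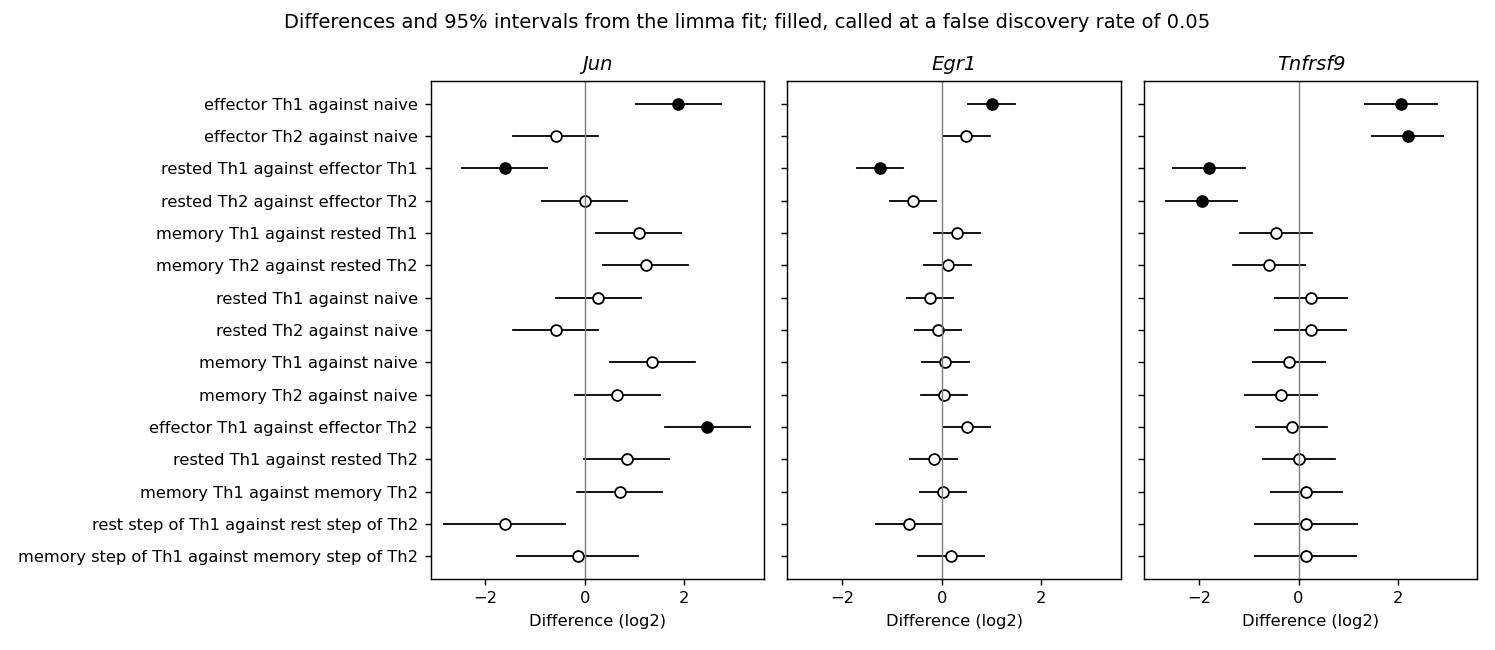
Differences of Jun, Egr1 and Tnfrsf9 (log2, x axis) in the 15 comparisons (y axis), as points with 95% intervals from the limma fit, filled where called at a false discovery rate of 0.05. Filled points stand in effector Th1 against naive and rested Th1 against effector Th1 for all 3 genes, in the Th2 counterparts for Tnfrsf9 alone, and in effector Th1 against Th2 for Jun alone at 2.46.

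Over the 21 samples the levels of Egr1 and Tnfrsf9 correlated at r = 0.73, those of Jun and Egr1 at r = 0.51 and those of Jun and Tnfrsf9 at r = 0.04. These values describe samples that share groups, numbers and spot patterns. The 5 genes whose levels were most like those of Tnfrsf9 were Dbi, an acyl-CoA-binding protein gene (r = 0.95), Ccnb2 and Cdk1 of the mitotic cell cycle (both r = 0.94), Ostc, a subunit gene of the oligosaccharyltransferase (r = 0.93), and the glycolytic gene Pgk1 (r = 0.93). For Egr1 they were the chloride intracellular channel gene Clic1 (r = 0.92), the D-type cyclin gene Ccnd3 (r = 0.91), the transglutaminase gene Tgm2 (r = 0.89), Aspm of the mitotic spindle (r = 0.88) and the interferon-induced Ifitm3 (r = 0.87). The closest genes to Jun were less alike, from Ubald2 (r = 0.78), the NAD-synthesis gene Nampt (r = 0.72), Arap3 (r = 0.71) and the potassium channel gene Kcnc1 (r = 0.70) to the transcription factor gene Klf7 (r = 0.69). Klf7 was also among the reporters called between effector Th1 and Th2 cells, at 1.76 higher in Th1 (adjusted p = 0.0293), as were Tgm2 at 2.10 (0.00143) and Ifitm3 at 3.50 (7.65e-07).

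The other measured genes of AP-1 were set beside Jun. Of 17 listed family members 6 were measured: Jun, Fos, Fosl1, Fosl2, Atf4 and Mafg. In effector Th1 against naive cells 2 of 6 rose, namely Jun itself and Fos, and none fell. The list median, with Jun counted in, was 0.58 against -0.05 for all reporters, of which 5.53% were called higher and 4.35% lower. Fos, the main partner of Jun in AP-1, rose by 1.199 ± 0.32 in effector Th1 cells (adjusted p = 0.0199), from a mean level of 3.53 to 4.73. In effector Th2 cells Fos stood at 3.81 and was not called against naive cells (0.28 ± 0.32) or against effector Th1 cells (0.92 ± 0.32 higher in Th1, unadjusted p = 0.0103, adjusted p = 1). On rest Fos fell by 1.84 ± 0.32 in Th1 (adjusted p = 0.000492) and by 1.21 ± 0.32 in Th2 cells (adjusted p = 0.0235), and from rested to memory Th2 cells it rose by 1.33 ± 0.32 (adjusted p = 0.0219). Fosl2 was higher in rested Th1 than in naive cells by 2.40 ± 0.60 (adjusted p = 0.014), with rested Th1 samples between 2.20 and 5.52. It fell from rested to memory Th1 cells by 2.67 ± 0.60 (adjusted p = 0.00561). Fosl1, Atf4 and Mafg were called in none of the 15 comparisons, and in effector Th1 against naive cells they differed by -0.03, 0.12 and 0.09. Of the Egr family and its co-repressors, 6 genes in the list, Egr1 was the 1 measured.

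Among 12 measured genes of immediate early and feedback responses, 1 rose and 3 fell in effector Th1 cells and 5 fell in effector Th2 cells, with list medians of -0.39 and -0.63. Of all reporters, 5.53% were called higher and 4.35% lower in the Th1 comparison, and 3.83% were called lower in the Th2 comparison. Dusp10, a phosphatase of JNK and p38 kinases, fell by 3.99 ± 0.37 in Th1 and by 2.53 ± 0.37 in Th2 effector cells, and Nfkbia, whose product IκBα holds NF-κB in the cytoplasm, fell by 2.53 ± 0.23 and 2.23 ± 0.23. Gadd45g, a stress sensor that activates the p38 and JNK kinase cascade, rose by 3.13 ± 0.48 in effector Th1 cells (adjusted p = 0.000134). Its difference between effector Th1 and Th2 cells was 1.63 ± 0.48 (adjusted p = 0.597), and that of Dusp10 was -1.46 ± 0.37 (adjusted p = 0.172). From rested to memory cells 3 of the 12 rose in either lineage, while 2 fell in Th1 and 0 in Th2 cells. Klf6 rose by 1.32 ± 0.33 in Th1 and by 1.27 ± 0.33 in Th2 cells and Klf4 by 1.08 ± 0.33 and 2.06 ± 0.33, both being zinc finger genes of the Krüppel family. Nfkbia was the third to rise. Ier3 and Gadd45g fell in Th1 cells (-1.47 ± 0.44 and -1.71 ± 0.48, adjusted p = 0.0284 and 0.0199). Of all reporters, 17.8% were called in the Th1 and 3.91% in the Th2 comparison. Of 7 measured kinases and upstream factors, 1 fell in effector Th1 cells, the p38 gene Mapk14 by 0.78 ± 0.21 (adjusted p = 0.0216), and none was called in effector Th2 cells. The ERK kinase gene Map2k1 fell by 0.68 ± 0.23 when Th1 cells were rested (adjusted p = 0.0441). Nfatc3 of the same list rose in that comparison by 0.78 ± 0.23 (limma, adjusted p = 0.025). The list median there was 0.56, and 16.2% of all reporters were called in either direction. The JNK gene Mapk8 was measured and was called in no comparison.

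In the TNF receptor family with its ligands and adaptors, 12 genes were measured, Tnfrsf9 itself among them. Tnfrsf9 was the only one called higher in effector Th1 cells (list median 0.09) or effector Th2 cells (0.10). The share of all reporters called higher was 5.53% in the Th1 and 5.31% in the Th2 comparison. Birc3, an inhibitor of apoptosis that works with TRAF adaptors, fell by 1.10 ± 0.33 in effector Th2 cells (adjusted p = 0.0422). Its mean level was 6.68 in naive, 5.66 in effector Th1 and 5.58 in effector Th2 cells, and the Th1 difference was not called. Against naive cells, Birc3 differed by -1.785 ± 0.33 in rested Th1 and by -1.51 ± 0.33 in rested Th2 cells (limma, adjusted p = 0.00137 and 0.0145). Tnfrsf4, which encodes the co-stimulatory receptor OX40, differed from naive cells by 0.03 ± 0.55 in effector Th1 and by 0.24 ± 0.55 in effector Th2 cells. Tnfsf9, the gene of the 4-1BB ligand, had a mean level of 2.91 in naive, 2.25 in effector Th1 and 2.66 in effector Th2 cells, and neither difference was called. It rose by 1.42 ± 0.43 from rested to memory Th1 cells (adjusted p = 0.0303), where Tnfrsf9 was low. Cd27, another co-stimulatory receptor gene, rose by 1.14 ± 0.37 when Th1 cells were rested (adjusted p = 0.0395). Traf5 and Tnf were called in none of the comparisons. Of 4 measured T cell activation markers (Tfrc, Slc3a2, Tnfrsf4 and Tnfrsf9), Tnfrsf9 was the only one called against naive cells in either effector group. In those comparisons 9.88% (Th1) and 9.13% (Th2) of all reporters were called.

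**Figure D4:**
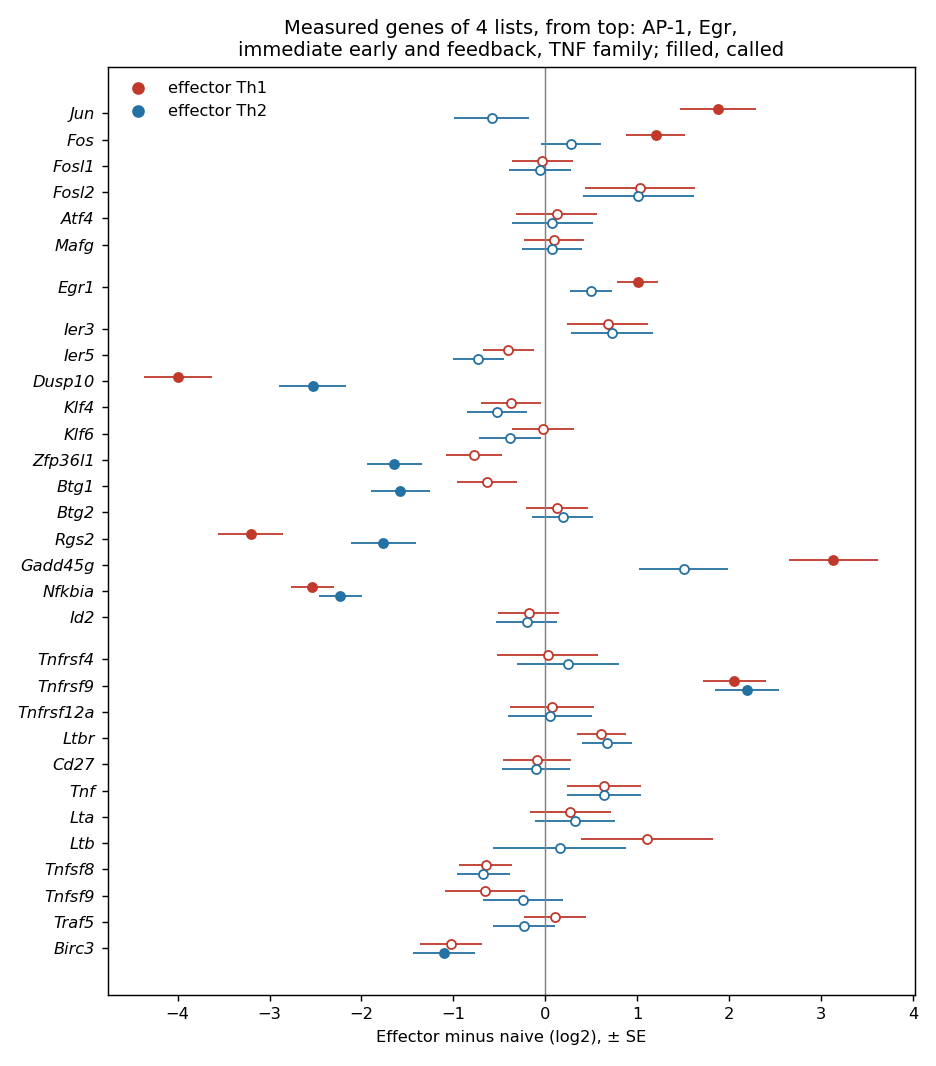
Effector minus naive difference (log2, x axis) with SE for each measured gene (y axis) of the AP-1, Egr, immediate early and feedback, and TNF family lists, in red for Th1 and blue for Th2, filled where called at a false discovery rate of 0.05. Jun and Fos are filled for Th1 alone and Tnfrsf9 for both, while Dusp10, Rgs2 and Nfkbia are filled on the low side in both lineages.

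Markers of other cells moved between the same groups. The summed level of the 5 measured myeloid markers of 12 listed (Lyz2, Fcer1g, Itgam, Lgmn and Ctsb) was 21.02 to 22.6 in naive, 13.9 to 15.0 in effector Th1, 14.2 to 16.05 in effector Th2, 17.2 to 19.3 in rested Th1, 16.97 to 18.4 in rested Th2, 12.6 to 14.01 in memory Th1 and 15.4 to 16.7 in memory Th2 samples. Of these 5, 3 fell in either effector group against naive cells and none rose. The share of all reporters called lower was 4.35% in the Th1 and 3.83% in the Th2 comparison. Of 3 measured granulocyte markers of 8 listed (S100a9, Csf3r and Ltf), S100a9 fell by 3.73 ± 0.33 in effector Th1 and by 3.76 ± 0.33 in effector Th2 cells (adjusted p = 1.12e-07 and 1.28e-07). Their summed level was 15.1 to 15.8 in naive, 9.89 to 12.1 in effector Th1, 9.68 to 11.8 in effector Th2, 12.2 to 13.6 in rested, 8.63 to 9.72 in memory Th1 and 12.9 to 13.4 in memory Th2 samples. Both measured erythroid and platelet markers of 6 listed (Alas2 and Itga2b) fell from rested to memory Th1 cells, by 1.07 ± 0.31 and 1.59 ± 0.23 (adjusted p = 0.024 and 0.000134). In that comparison 17.8% of all reporters were called in either direction. Neither of the 2 markers was called in effector against naive cells. Their summed level was 5.26 to 6.11 in rested Th1, 2.40 to 3.83 in memory Th1 and 3.68 to 4.83 in all other samples. The stromal marker Fn1 rose against naive cells, by 2.03 ± 0.32 in effector Th1 (adjusted p = 0.000162) and by 2.00 ± 0.32 in effector Th2 cells (adjusted p = 0.000218). The share of all reporters called higher was 5.53% in the Th1 and 5.31% in the Th2 comparison. Sparc and Dcn were called in neither, and mean Dcn was lower in both effector groups than in naive cells. Sparc was 1.69 ± 0.36 higher in rested Th1 than in rested Th2 cells (adjusted p = 0.0448), where 0.361% of reporters were called. The summed level of the 3 measured stromal markers of 7 listed (Fn1, Sparc and Dcn) was 9.72 to 11.6 in naive, 12.9 to 14.4 in effector Th1, 12.2 to 12.9 in effector Th2, 9.81 to 11.48 in rested and 8.50 to 10.5 in memory samples. No reporter of the 6 B cell or the 5 CD8 T and NK cell markers listed was named. The part of these cells in the results was not tested. In such RNA, fewer cells that express a gene and less RNA of it per cell cannot be told apart.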

How the data were processed

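Per the labels' protocols, cDNA labelled with 33P-dCTP from 1 sample was hybridised to each of 42 arrays. The deposited values were linear spot intensities, 9600 per array, without a background column; neither the scanner nor any background subtraction is named in the labels. The authors' deposited value table equalled these intensities times 1 constant per array (medians 0.936 to 1.15, 9 cells empty) and was an alternative.

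All arrays were quantile-normalised together (limma 3.58.1, R 4.3.3), 1 was added and log2 taken, and the 2 spots of a reporter and then arrays a and b were averaged. One limma model (lmFit, eBayes) covered the 21 samples, and Benjamini-Hochberg adjustment ran over the 4992 reporters of each of 15 comparisons. Every adjusted p comes from limma. Depth has no counterpart here, and 3 samples per group limit the precision. Symbols of 3605 of 3626 single-gene reporters were updated through Entrez identifiers in a RefSeq table of GRCm38.p6. The brightest reporter stood for a gene of the lists. Among the genes most correlated with a member, the reporter with the highest correlation stood for a gene.

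Named genes were the members, the 5 genes most correlated with each, and genes of fixed lists. Members, lists and tests were chosen with earlier results of these data known. Same-numbered samples deviated together from their group means in all 13 comparisons of 2 groups (r = 0.139 to 0.909; 0.642 to 0.909 between lineages), so the numbers were taken to pair the samples and values with the replicate block are given where they change a call. Other steps and plots used Python 3.11.15 (matplotlib 3.10.9). Alternatives were median centring, a pseudocount of 8, leaving out dim reporters (mean under the 0.25 quantile, 3744 kept), the series matrix, arrays a or b alone, the replicate block, only the groups compared, the spot pattern as a random block (correlation 0.784) and leaving out each sample. The replicate block with only the groups compared was added after seeing the data.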

Additional observations from a re-analysis of the deposited data

Results flagged for a closer look

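The change of Jun from naive to effector cells differed between the lineages. The direct test of effector Th1 against effector Th2 cells gave 2.46 ± 0.41 (SE, n = 3 per group; limma, adjusted p = 0.005). That call was lost without effector Th1 sample 2 (adjusted p = 0.0555). It was also lost with the replicate block on only the groups compared (adjusted p = 0.0535). All 3 effector Th1 samples lay above the naive mean, by 1.88 on average, and all 3 effector Th2 samples lay below it, with a mean difference of -0.58 that was not called itself. Effector Th2 sample 3, at 3.37, lay within the range of the naive samples (3.33 to 4.04). The same 3 naive samples served both differences. Outlying samples were not looked for, since every group held 3 samples.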

How the results depend on the processing

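Every alternative was run for the 3 members in the 15 comparisons, and no call changed direction. Leaving out samples aside, 455 of 474 member results stayed on their side of the threshold, 15 passed newly and 4 were lost. These results were not all independent checks. The series matrix held the same intensities times a constant per array, and its counts of called reporters were close to those of the larger pseudocount. Before normalisation, arrays a and b gave the same ratio between Th1 and Th2 samples of the same number. Using either array alone was therefore no separate check of the lineage comparisons. Lost were Jun in rested against effector Th1 cells with arrays a (-1.33, adjusted p = 0.0716), Egr1 across the 7 groups with arrays a (F = 3.53), Egr1 in effector Th1 against naive cells with arrays b (0.99), and Jun between the effector groups with the replicate block on only the groups compared (2.46, adjusted p = 0.0535). Jun in memory against rested Th1 cells passed with median centring (1.28), arrays b (1.23), the replicate block (1.09) and the spot pattern as a random block (1.23), and in Th2 cells with the replicate block (1.23) and the pattern (1.37). Jun in memory Th1 against naive cells passed with the replicate block (1.36). Further passes came with the pattern: Jun in memory against naive cells (1.80 in Th1, 1.10 in Th2), between rested (0.85) and memory groups (0.71) and in the rest steps (-1.61, also with the replicate block on only the groups compared), and Egr1 between effector groups (0.51) and in the rest steps (-0.66). The replicate block changed no other call of a member. The cause of these shifts was not tested.

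Without 1 sample, Jun ranged from 2.32 to 2.56 between effector groups, 0.65 to 1.54 in memory against rested Th1, 0.83 to 1.66 in memory against rested Th2 0.92 to 1.81 in memory Th1 and 0.25 to 1.08 in memory Th2 against naive cells, and 0.27 to 1.16 between memory groups. The last pair of ranges held no call. The first lost its call without effector Th1 2; both memory Th1 differences passed without memory Th1 2, memory against rested Th2 passed without memory Th2 2, and memory against rested Th1 also passed without memory Th2 2 (1.09). With median centring the median of all reporters was -0.13 in effector Th1 against naive, -0.11 in rested Th1 against naive and 0.11 in memory against rested Th1 cells (-0.05, -0.03 and 0.09 by default).

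Counts of called reporters moved more. In the order effector against naive (Th1, Th2), rested against effector, memory against rested, rested against naive, memory against naive, Th1 against Th2 (effector, rested, memory), rest steps and memory steps, they were 493, 456, 810, 378, 887, 195, 523, 148, 39, 14, 9, 18, 10, 5 and 3. With the replicate block they were 836, 761, 1362, 790, 1607, 719, 1082, 344, 298, 70, 26, 118, 20, 12 and 52. With the block on only the groups compared they were 924, 1103 (effector against naive), 1058 (rested against effector Th2), 301, 52 (memory against rested), 380 (rested Th2 against naive), 6, 2 (memory against naive), 23, 0, 0 (lineages) and 13 (rest steps). With the pattern they were 1489 and 1187 (memory against naive), 121, 1005 and 396 (lineages), 398 and 823 (steps). With only the groups compared they were 182, 46, 268 (rested Th1 against naive), 8, 4, 0 (rested), 0 (memory lineages) and 0 (memory steps). Median centring gave 103, 321, 67, 8, 7 (rested lineages) and 10 (memory steps), a pseudocount of 8 gave 74, 23, 21, 66, 15 and 12, and the series matrix 74, 25, 22, 66, 15 and 12 (memory against naive, effector and rested lineages, steps). Without dim reporters 420 (rested against effector Th2) and 164 (rested Th2 against naive) were called. Arrays a gave 18, 8, 0, 5 and 2 (memory against naive, rested and memory lineages, rest steps), and arrays b 576, 127, 21, 6, 9, 3 and 0 (memory against rested, memory against naive, rested lineages, steps). Without 1 sample the counts ran from 522 to 859 and 214 to 401 (rested against effector), 555 to 923 and 94 to 305 (memory against rested), 273 to 564 and 72 to 158 (rested against naive), 14 to 94 and 6 to 33 (memory against naive), 0 to 43 and 4 to 17 (rested and memory lineages), and 2 to 6 and 1 to 26 (steps). Dimness limits Egr1 and Tnfrsf9 most: at a pseudocount of 8 their rises shrank by more than 1.5 times, as the larger constant dictates.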

Other observations

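In some groups the members deviated from the group mean in the same order of samples in both lineages, and in others they did not. Jun deviated from the group mean by 0.04, -0.91 and 0.87 in memory Th1 samples 1, 2 and 3 and by 0.06, -0.85 and 0.80 in memory Th2 samples. Tnfrsf9 deviated by 0.53, -0.57 and 0.04 in rested Th1 and by 0.60, -0.62 and 0.02 in rested Th2 samples. Egr1 deviated by -0.21, 0.23 and -0.02 in effector Th1 and by -0.38, 0.37 and 0.01 in effector Th2 samples. By contrast, Jun deviated by -0.19, 0.27 and -0.08 in effector Th1 but by -0.10, -0.07 and 0.16 in effector Th2 samples, and Egr1 by 0.01, 0.10 and -0.11 in rested Th1 but by -0.11, 0.01 and 0.10 in rested Th2 samples. Before normalization, the Th1 to Th2 ratio of Jun intensities was 5.66, 10.1 and 5.99 in effector samples 1, 2 and 3, 1.27, 2.06 and 2.24 in rested samples and 1.60, 1.97 and 2.74 in memory samples. Those ratios were the same in all 4 spots of a pair of samples.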
